A study of Mus musculus with 17 samples.

Results

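Nicotinic acetylcholine receptors were followed here through the transcripts of 10 of their subunits in mouse frontal cortex: the alpha subunits Chrna2, Chrna3, Chrna4, Chrna5, Chrna6, Chrna7 and Chrna10 and the beta subunits Chrnb2, Chrnb3 and Chrnb4. The 10 genes were taken by symbol out of 46073 genes measured. Of these, 6 (Chrnb2, Chrna4, Chrna7, Chrna5, Chrna10 and Chrna3) were high enough to enter a test across 19064 genes, and Chrna2, Chrnb3, Chrnb4 and Chrna6 were not. Levels are deposited FPKM values, the number of reads per kilobase of transcript scaled to the reads of the library.

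The study compared polyadenylated RNA from the frontal cortex of male mice of strain FVB/N that did or did not make the microRNA miR-211 from a transgene in the forebrain. Ct mice (6 libraries) had the genotype CamK, a driver that is active in forebrain excitatory neurons. The dTg mice (7 libraries, 6 of them used for testing) had the genotype dTg-211, the driver together with the miR-211 transgene, and dTgDox mice (3 libraries) had the same genotype and received Dox (doxycycline, which silences a driver of this kind) for 4 days. Another library was labelled Ntg, genotype PTRE-miR-211 (non CamK). Ages were not given, and no Ct mice received Dox, so an effect of the drug and an effect of silencing miR-211 cannot be told apart. The driver reaches only part of the cells in the tissue, and the measured RNA comes from the whole piece of tissue. The labels do not say how many animals stand behind each library, so the p-values measure only the spread between these samples, which may be technical.

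Nicotinic receptors are ion channels of the cell membrane, each built from a ring of subunits, that open when acetylcholine or nicotine binds. In the forebrain the most widespread forms are a heteromer of Chrna4 and Chrnb2, which has high affinity for nicotine and can take up Chrna5 as an accessory subunit, and a homomer of Chrna7, which passes calcium and desensitises fast. Chrna3 and Chrnb4 form the ganglionic type of receptor, also found in the habenula, Chrna6 and Chrnb3 are subunits of dopamine neurons, Chrna2 marks some interneurons, and Chrna10 is known from the hair cells of the inner ear. In bulk tissue, fewer cells of a type and less RNA per cell cannot be told apart.

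Several libraries stood apart in regional marker genes, which were scored as the mean log2(FPKM + 0.5) of a list. The libraries labelled dTg replicate 1 and Ntg replicate 1 held the same value in every one of the 46073 genes, so the 17 files hold 16 distinct libraries. That shared library scored 8.11 on cerebellar markers against 2.78 to 3.63 in the 15 others, and Camk2a, a gene of forebrain excitatory neurons, stood at 28.3 FPKM in it against at least 593.9 FPKM. It is shown apart throughout. The 3 dTgDox libraries scored 3.73 to 3.84 on 13 hippocampal markers against 1.02 to 1.44 in Ct and 1.14 to 1.27 in dTg, and 2.94 to 3.24 on 12 upper cortical layer markers against 3.48 to 4.12 and 3.56 to 4.07. Olfactory bulb markers were high in Ct replicates 1, 2 and 5 and dTg replicate 3 (3.27 to 4.87) and at 1.003 to 2.26 in the 8 other Ct and dTg libraries. Estimated depth in the 15 libraries was 20.7 to 29.0 M reads, at which 1 read on a transcript of 1 kb is worth 0.0345 to 0.0482 FPKM.

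The genes lie on 6 chromosomes (coordinates from GENCODE M21, GRCm38). Chrna7 (ENSMUSG00000030525) occupies chr7:63098692-63212569 on the minus strand, 0.99 Mb from Mir211 itself at chr7:64205806-64205911. Chrna5 (chr9:54980880-55007779, plus strand), Chrna3 (chr9:55010111-55026562, minus strand) and Chrnb4 (chr9:55028154-55048779, minus strand) form 1 cluster within 67899 bases. Chrnb3 (chr8:27368711-27399730) and Chrna6 (chr8:27403212-27413944) lie 3482 bases apart. Chrna4 is at chr2:181018380-181043546, Chrnb2 at chr3:89746195-89764632, Chrna10 at chr7:102111266-102116828 and Chrna2 at chr14:66135039-66152948. Chrnb2 shares 16.3% of its 8380 exon bases with Adar on the opposite strand, and Chrna10 shares 39.0% of its 2628 exon bases with Art1. Whether strand was used in counting is not given in the sources used here, so reads in these shared stretches cannot be told apart.

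Because the transgene encodes miR-211, its mature sequence (RefSeq, GRCm38.p6, chr7:64205831-64205852, plus strand) was set against the 3′ untranslated regions of the subunits. The first sequence shows the microRNA with its seed, bases 2 to 8, in capitals, and those after it show target-like stretches with the matched letters in capitals, those that pair with the seed and, in Chrna2, a further A opposite base 1.
miR-211-5p: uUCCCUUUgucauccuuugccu
Chrna2, chr14:66151443-66151470: agaccaggacAAAGGGAAatagaacact
Chrna10, chr7:102111422-102111449: gttactaattAAAGGGAcaaagctacac
Chrnb2, chr3:89756803-89756830: aggggccaagAAAGGGAcagttatctat
Chrnb2, chr3:89755845-89755872: gtgctgggtgAAAGGGAccctggcgtgt
Chrna6, chr8:27404269-27404296: accaagacaagAAGGGAgtgggcattgc
Chrnb3, chr8:27398777-27398804: tctgtgtgagcAAGGGAgggtaggagct

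The search read the transcript strand of the longest 3′ untranslated region of each gene for AAGGGA (6 bases), AAAGGGA or AAGGGAA (7 bases) and AAAGGGAA (8 bases), so each longer match also holds the shorter ones. Chrna2 held the 8-base match and 3 stretches in all. Chrnb2, whose 3′ untranslated region is the longest of the 10 at 4667 bases, held 6 stretches, 4 of them AAAGGGA. Chrna10 held 1 AAAGGGA, and Chrna6 and Chrnb3 held 1 AAGGGA each. No match was present in the searched sequence of Chrna7, Chrna5, Chrna4, Chrna3 or Chrnb4. Among 14333 tested genes with such a region, the best match was 8 bases in 7.08%, AAAGGGA in 9.49%, AAGGGAA in 8.25% and 6 bases in 12.68%, and 62.49% had none. A match is a description of letters and does not show binding. Precursor Mir211 reads, which a library of polyadenylated RNA is not built to catch, were listed at 21.6 FPKM in dTg replicate 2 and 24.8 FPKM in dTg replicate 5 and at 0 in every other library. Trpm1, the gene whose intron holds Mir211, was 0.0370 to 0.398 FPKM in the 15 libraries tested.

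In the 12 Ct and dTg libraries 4 subunits had the highest mean levels. Chrnb2 averaged 18.2 ± 0.737 FPKM (SD, n = 12), Chrna4 10.2 ± 1.57, Chrna7 5.94 ± 1.06 and Chrna5 1.14 ± 0.207 FPKM, and each of the first 3 exceeded the next in 12 of 12 libraries. Chrna5 exceeded the next by mean, Chrnb3, in 12 of 12, but in Ct replicate 1 it was 1.05 FPKM against 1.21 FPKM of Chrna10. Below Chrna5 the mean levels were 0.370 FPKM for Chrnb3, 0.345 for Chrna10, 0.326 for Chrna3, 0.298 for Chrna2 and 0.202 for Chrnb4, and these neighbours crossed: Chrna10 exceeded Chrna3 in 6 of 12 libraries and Chrna3 exceeded Chrna2 in 5 of 12. Their order was therefore within the spread between libraries. Chrna6 never exceeded 0.0700 FPKM. In the 3 dTgDox libraries Chrna4 exceeded Chrna7 in 1 of 3.

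**Figure D1:**
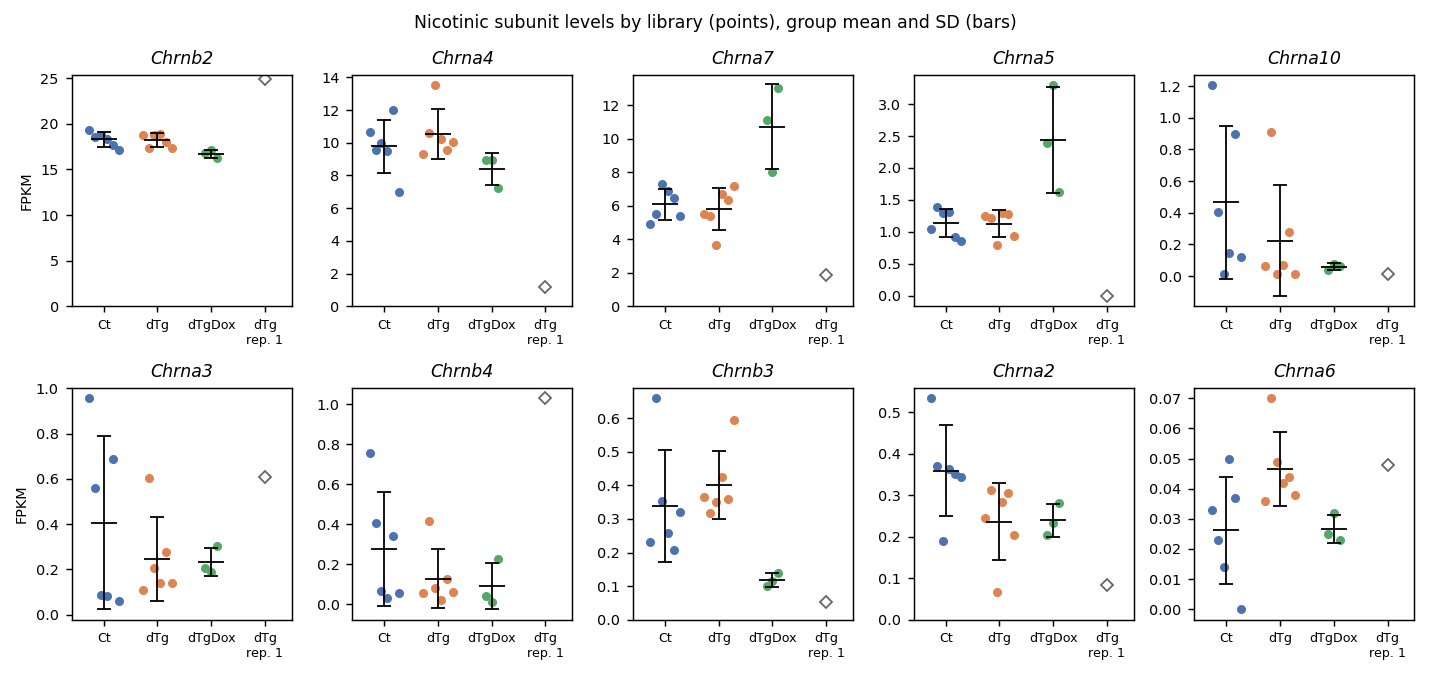
Level of each of the 10 subunits in FPKM, 1 point per library, for Ct (n = 6), dTg (n = 6), dTgDox (n = 3) and, as an open diamond, dTg replicate 1; horizontal bars are group means and vertical bars SD. Each panel has its own axis. Chrna7 and Chrna5 lie higher in all 3 dTgDox libraries than in all 12 Ct and dTg libraries, and Chrna10, Chrna3 and Chrnb4 spread widely within Ct and within dTg.

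Whether miR-211 expression by itself went with a change in the receptor genes was asked by setting dTg against Ct. No subunit passed the test in this comparison, and neither did any of the 19064 genes (0% called by limma at an adjusted p of 0.05), although 607 genes had an unadjusted p below 0.05. No subunit lay higher, or lower, in all 6 dTg libraries than in all 6 Ct libraries, which 0.0787% and 0.0525% of the tested genes did. The 6 tested subunits had a median log2 difference of -0.04, against 0.00 over all genes. For Chrna7 the fitted log2 difference was -0.07 (95% interval -0.40 to 0.25), for Chrna5 -0.01 (-0.31 to 0.30) and for Chrna4 0.11 (-0.14 to 0.36). The interval was narrowest for Chrnb2, the shared beta subunit of the forebrain heteromers, which lay between 17.1 and 19.3 FPKM in Ct and between 17.3 and 18.9 FPKM in dTg. Chrna10 and Chrna3 had wide intervals, -1.04 to 0.28 and -0.73 to 0.32.

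**Figure D2:**
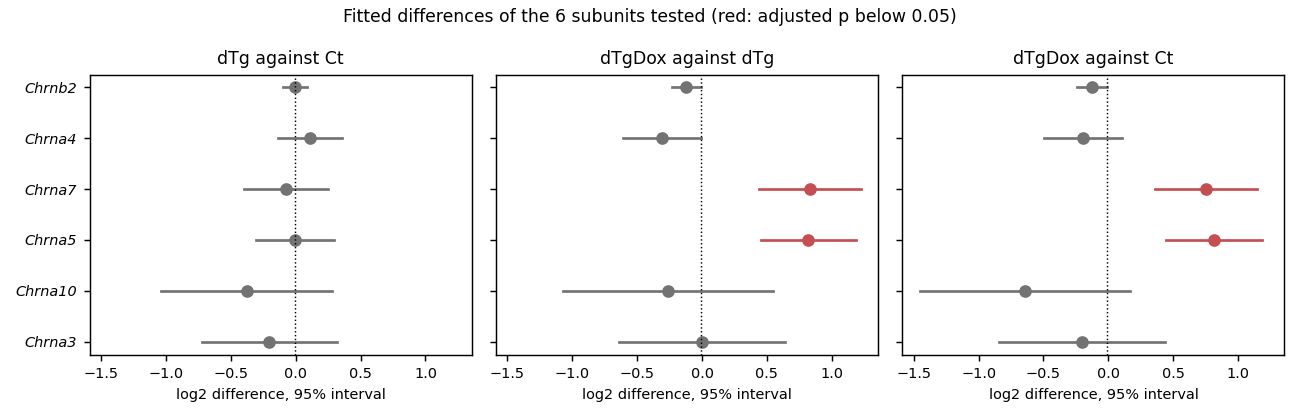
Fitted log2 difference with its 95% interval for the 6 tested subunits in the 3 comparisons, in red where the adjusted p was below 0.05. Only the Chrna7 and Chrna5 points in the panels of dTgDox against dTg and dTgDox against Ct are red, and every dTg against Ct interval includes 0.

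The comparisons of dTgDox with dTg and of dTgDox with Ct share the 3 dTgDox libraries, so they are given side by side and not as independent evidence. In both, Chrna7 and Chrna5 rose and the 4 other tested subunits did not pass. With dTgDox against dTg, 2 of 6 tested subunits were higher and 0 lower, where 18.9% of all genes passed in either direction (9.65% higher and 9.22% lower). With dTgDox against Ct the counts were again 2 and 0, where 19.7% of all genes passed (9.86% higher and 9.85% lower). A large share of all genes thus passed in these comparisons. The median log2 difference of the 6 subunits was -0.06 against dTg and -0.16 against Ct, and over all genes -0.01 and -0.01.

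Chrna7, the subunit of the homomeric receptor, stood at 4.91, 5.99 and 7.30 FPKM (lowest, median, highest) in Ct and at 3.69, 5.94 and 7.16 FPKM in dTg. In dTgDox it was 11.1, 8.00 and 13.03 FPKM in replicates 1, 2 and 3. All 3 dTgDox libraries were above all 12 others, a pattern seen in 8.06% of all tested genes, and replicate 2 was the nearest to them. The means were 6.08 ± 0.941 FPKM in Ct (SD, n = 6), 5.81 ± 1.24 in dTg (n = 6) and 10.7 ± 2.54 in dTgDox (n = 3), a 1.76-fold difference over Ct and a 1.85-fold difference over dTg. By limma the log2 difference was 0.83 (SE 0.184, adjusted p = 0.0058) against dTg and 0.76 (SE 0.184, adjusted p = 0.01) against Ct. Without dTgDox replicate 3 the difference from Ct was 0.61 and no longer passed (adjusted p = 0.0701), and without the 4 libraries rich in olfactory bulb markers it was 0.66 (adjusted p = 0.0813).

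Chrna5, the accessory subunit of the Chrna4 and Chrnb2 receptor, stood at 0.864, 1.17 and 1.39 FPKM (lowest, median, highest) in Ct and at 0.801, 1.23 and 1.30 FPKM in dTg. In dTgDox it was 2.38, 3.30 and 1.63 FPKM in replicates 1, 2 and 3. Here too the groups did not overlap, but the replicate with the most Chrna5 was the one with the least Chrna7. The dTgDox mean of 2.44 ± 0.834 FPKM was 2.15-fold the mean of the 12 other libraries. On the log2 scale, which understates changes of low genes, the limma difference was 0.82 (SE 0.173, adjusted p = 0.0042) against dTg and 0.81 (SE 0.173, adjusted p = 0.0044) against Ct. With dTg replicate 1 counted as a dTg library, where Chrna5 was listed at 0, the spread grew and neither difference passed (adjusted p = 0.0584 and 0.157); in that fit Chrna7 passed against dTg (adjusted p = 0.0409) and not against Ct (adjusted p = 0.138).

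Chrna4, the main alpha subunit of the high-affinity receptor, was 8.97, 8.95 and 7.24 FPKM in dTgDox replicates 1, 2 and 3, within the range of Ct (6.999 to 11.99) and below that of dTg (9.30 to 13.6). The share of all tested genes that lay below dTg alone in this way was not computed, so the gap is not read as particular to Chrna4. The limma log2 difference was -0.31 (adjusted p = 0.14) against dTg and -0.20 (adjusted p = 0.36) against Ct. Chrnb2 was 16.78, 17.08 and 16.20 FPKM in dTgDox, below all 12 Ct and dTg libraries, the nearest of which, Ct replicate 6, had 17.09 FPKM. The same pattern held for 8.06% of all tested genes, the dTgDox mean was 0.920 of the mean of the 12, and the limma difference did not pass (-0.12, adjusted p = 0.14, and -0.13, adjusted p = 0.11). Adar, which overlaps Chrnb2 on the other strand, fell by 0.48 and by 0.50 on the log2 scale in the same 2 comparisons (adjusted p = 0.00096 and 0.00065), from 34.8 to 46.4 FPKM across Ct and dTg to 27.7 to 30.2 FPKM in dTgDox. Its part in the Chrnb2 value was not tested.

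The makeup of the receptor transcripts within a library does not depend on how libraries were scaled. The summed FPKM of the 10 subunits was 31.3 to 39.6 in Ct, 35.7 to 38.1 in dTg and 38.0 to 39.9 in dTgDox. Chrnb2 made up 49.4 ± 3.19% of the sum in Ct, 49.2 ± 2.11% in dTg and 42.8 ± 1.89% in dTgDox (mean ± SD). Chrna7 made up 16.4 ± 2.54%, 15.7 ± 3.41% and 27.4 ± 6.13%, and Chrna4 26.2 ± 2.54%, 28.5 ± 3.8% and 21.5 ± 2.67%. The ratio of Chrna7 to Chrnb2 ran from 0.254 to 0.390 in Ct and from 0.196 to 0.414 in dTg, and was 0.663, 0.468 and 0.804 in dTgDox replicates 1, 2 and 3. The ratio of Chrna5 to Chrna4 ran from 0.0770 to 0.146 and from 0.0590 to 0.134, and was 0.266, 0.368 and 0.225 in dTgDox. The ratios of Chrna7 to Chrnb2 and of Chrna5 to Chrna4 were higher in dTgDox than in dTg and Ct by an exact two-sided permutation test (p = 0.0119, the smallest that 3 against 6 libraries can give; adjusted p = 0.027 over 9 tests of 3 ratios). The ratio of Chrna4 to Chrnb2 did not pass in any comparison (exact permutation test, smallest adjusted p = 0.3). With any 1 dTgDox library left out the adjusted p of these 2 ratios was 0.08, which follows from the smallest p that 2 against 6 libraries can give (exact permutation p = 0.0357) and shows nothing of stability. With dTg replicate 1 added that of Chrna7 to Chrnb2 against dTg was 0.094 (exact permutation). The ratios were chosen with the levels above known. In dTgDox, Chrna7 lay above and Chrnb2 below every Ct and dTg library, so the separation of their ratio followed from those levels. Likewise Chrna5 lay above and Chrna4 below every dTg library, which fixed the separation of their ratio against dTg. These ratio tests therefore add no evidence beyond the levels.

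**Figure D3:**
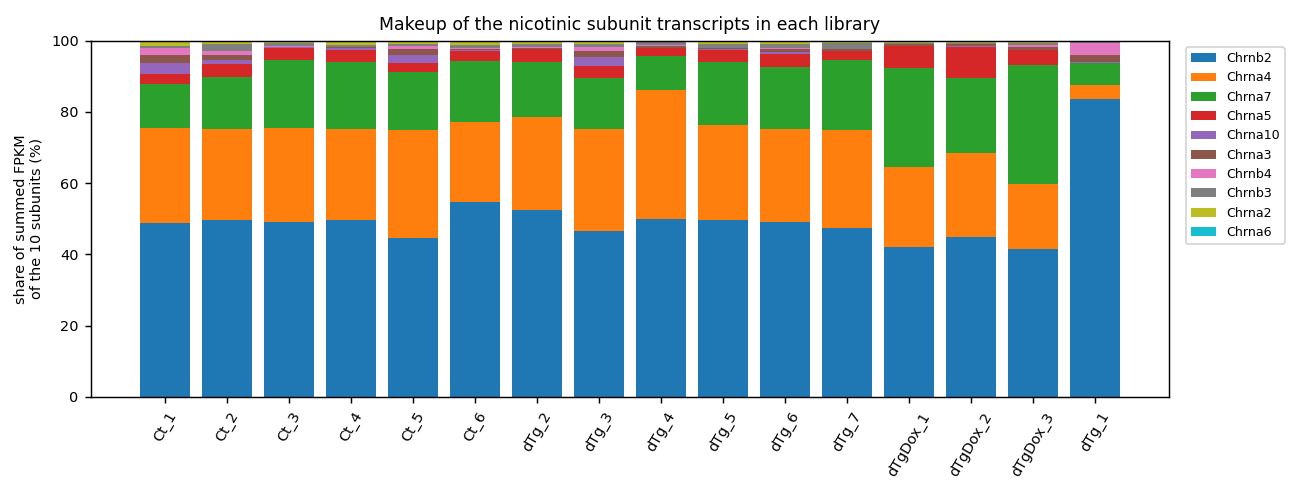
Share of each subunit in the summed FPKM of the 10 subunits, in percent, with 1 stacked bar per library (Ct, dTg, dTgDox, and dTg replicate 1 at the right). The Chrna7 segment takes 21.1% to 33.3% in dTgDox and 9.80% to 19.6% in the 12 Ct and dTg libraries, and Chrnb2 takes 83.6% in dTg replicate 1.

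Hippocampal markers moved with Chrna7 between groups. Of the 13 hippocampal markers tested, 11 rose in dTgDox against dTg and 12 against Ct, with a median log2 difference of 2.52 and 2.45, and among them Cabp7, a calcium-binding protein of hippocampal pyramidal cells, was 86.8 to 107.7 FPKM in dTgDox against 4.17 to 16.7 FPKM in Ct and dTg. Spink8, a marker of field CA1, was 38.2 to 60.02 FPKM against 0.721 to 6.82, and C1ql2, a marker of dentate granule cells, was 17.4 to 40.6 FPKM against 0.152 to 1.36. The summed level of the hippocampal list was 41.5 to 65.5 FPKM in Ct, 45.1 to 68.4 in dTg and 264.2 to 323.6 in dTgDox, and no marker of the list was at 0 throughout a group. Upper-layer markers moved the other way, with 7 of 12 lower and 1 higher against dTg and 6 of 12 lower against Ct. Of 18 pyramidal-cell markers of the hippocampus 11 and 13 rose, and of 17 dentate granule markers 9 rose and 2 fell in each comparison. Dsp and Lct, which belong to the 13 and to the 17 markers, entered the test only through the dTgDox libraries. Dsp was at most 0.413 FPKM in the 12 others, and Lct reached 0.5 FPKM in too few of them. The counts and scores of these 2 lists were thus partly set by the filter. Astrocyte markers scored 6.66 to 6.94 in dTgDox against 6.14 to 6.60 in the 12 others, but only 3 of 8 were higher and 1 was lower in each comparison. Oligodendrocyte markers scored 7.03 to 7.70 against 5.80 to 7.18, with 0 of 8 higher against dTg and 1 against Ct. Interneuron markers scored 4.79 to 5.05 against 5.23 to 5.51, with 3 of 13 lower and 1 higher in each comparison. All these list counts stand beside 9.65% of tested genes higher and 9.22% lower against dTg. Against Ct those shares were 9.86% and 9.85%. Choroid plexus markers scored 1.32, 1.27 and 4.89 in dTgDox replicates 1, 2 and 3 against -0.25 to 2.05 in the 12 others, and Ttr, the main transcript of that tissue, was 18.3, 38.4 and 1907 FPKM. Replicate 3, which stood apart in this way, also had the highest Chrna7. Over the 12 Ct and dTg libraries Chrna7 ran the other way with choroid plexus markers and did not pass (Pearson's r = -0.56, Spearman's rho = -0.64, permutation adjusted p = 0.36 and 0.27). The part of these markers in the Chrna7 and Chrna5 differences was not tested; group and hippocampal marker level cannot be told apart in dTgDox, where no library had a low marker level.

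**Figure D4:**
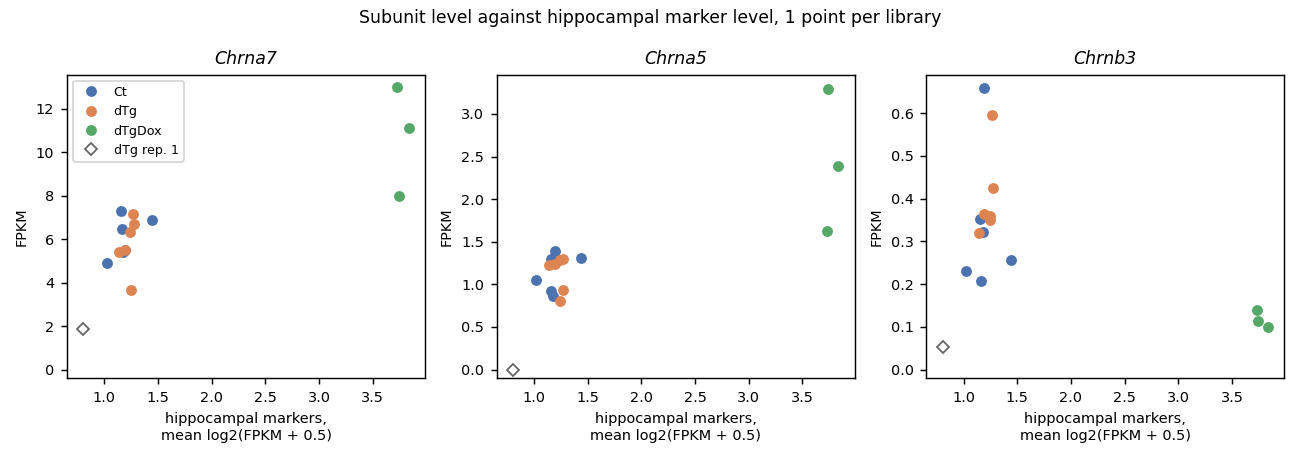
FPKM of Chrna7, Chrna5 and Chrnb3 against the mean log2(FPKM + 0.5) of the hippocampal markers, 1 point per library, coloured by group, with dTg replicate 1 as an open diamond. The dTgDox libraries form a cluster of their own at 3.73 to 3.84 on the marker axis, and the 12 Ct and dTg libraries lie at 1.02 to 1.44.

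Within the Ct and dTg libraries no relation of Chrna7 to these markers passed the test. Because dTgDox formed a separate cluster, relations were computed over the 12 Ct and dTg libraries alone. Chrna7 gave Pearson's r = 0.33 and Spearman's rho = 0.38 with the 13 hippocampal markers (permutation p = 0.28 and 0.22, adjusted p = 0.68 and 0.63 over 166 relations computed), and r = 0.01 without Ct replicates 1 and 4. With pyramidal-cell markers of the hippocampus r was 0.29 and rho 0.33 (permutation p = 0.36 and 0.3, adjusted p = 0.74 and 0.66), and r was 0.26 without Ct replicate 6 and dTg replicate 2. With dentate granule markers r was 0.57 and rho 0.50 (permutation p = 0.055 and 0.098, adjusted p = 0.36 and 0.42), and r fell to -0.07 without dTg replicates 4 and 7, so it rested on those libraries. Within Ct alone and within dTg alone (n = 6 each), r for the 3 lists ran from -0.01 to 0.56 and from 0.28 to 0.76, and none passed by an exact permutation test (smallest adjusted p = 0.46). Without the 2 libraries farthest from the median marker score, r ran from -0.89 to -0.26 in Ct and from -0.27 to 0.62 in dTg. The direction within each group thus rested on single libraries. Among the dTgDox libraries, replicate 3 had the highest Chrna7 (13.03 FPKM) and the lowest hippocampal score (3.73), while replicate 1 had 11.1 FPKM and the highest score (3.84), and 3 libraries allow no test.

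By likeness of pattern over the 12 Ct and dTg libraries, measured as Pearson's r of log2(FPKM + 0.5) among 14641 other genes, the genes nearest to Chrna7 were Dcun1d4 (r = 0.961), Dsel (0.956) and Ube3c (0.952). Over the 15 libraries, which pool the separate dTgDox cluster with the rest, they included Eif3e (0.951), Bag4 (0.943), Capza2 (0.934) and Sdcbp (0.932). None of these 7 genes is on the hippocampal lists. Those lists hold few of the 14641 genes compared, so this absence says nothing about a relation of Chrna7 to hippocampal markers. Nearest to Chrna5 were Gm15429 (0.871), Sae1 (0.853) and Ube2d2a (0.849), to Chrna4 Gm2694 (0.895), Grk3 (0.890) and C530008M17Rik (0.877), and to Chrnb2 Vps37c (0.883), Ranbp10 (0.870) and Mapk8ip3 (0.860). These are the highest values among many genes and carry no test.

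Chrna10, Chrna3 and Chrnb4 shared another pattern, high in the 4 libraries rich in olfactory bulb markers. Chrna10 was 1.21, 0.403 and 0.900 FPKM in Ct replicates 1, 2 and 5 and 0.908 FPKM in dTg replicate 3, and at most 0.279 FPKM (dTg replicate 6) in the other 8 Ct and dTg libraries. Chrna3 was 0.956, 0.562, 0.687 and 0.605 FPKM in the same 4 libraries and at most 0.275 FPKM in the 8. Chrnb4 was 0.755, 0.407, 0.343 and 0.417 FPKM and at most 0.128 FPKM. Each of the 3 subunits was thus higher in every bulb-rich library than in every one of the 8, as were 1.22% of all tested genes, and dTg holds only 1 bulb-rich library. Chrna10 and Chrna3 reached 0.5 FPKM only in bulb-rich libraries and so entered the tested set through them. Chrnb4 did not enter it, so that share does not cover Chrnb4. In dTgDox, where bulb markers scored 1.23 to 1.33, Chrna10 was 0.0400 to 0.0800 FPKM, Chrna3 0.188 to 0.302 FPKM and Chrnb4 0.00900 to 0.225 FPKM.

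The bulb markers themselves varied widely across the same libraries. Doc2g, a gene of mitral and tufted cells, was 91.7, 28.3 and 43.9 FPKM in Ct replicates 1, 2 and 5 and 47.0 FPKM in dTg replicate 3, and 1.64 to 9.25 FPKM in the 8 others. Th, the rate-limiting enzyme of dopamine synthesis, made by periglomerular cells of the bulb, was 41.5, 8.47, 24.5 and 25.6 FPKM against 0.907 to 6.15. Since the libraries fell into separate clusters, a relation to the bulb score was computed only within the 8 bulb-poor libraries. There Chrna10 followed the bulb score with r = 0.95 and rho = 0.90 (permutation p = 0.00094 and 0.0049, adjusted p = 0.039 and 0.18), and with r = 0.76 without Ct replicate 4 and dTg replicate 6, so it passed by 1 of 2 measures. Chrna3 and Chrnb4 gave r = 0.51 and 0.53 with rho = -0.07 and -0.17 and did not pass (permutation, adjusted p = 0.61 and 0.6 for r). Several of these 8 values rest on a few reads (Chrna10 was 0.0150 FPKM in Ct replicate 3 and 0.0130 FPKM in dTg replicates 4 and 7). Of 166 relations computed, 6 passed by Pearson's r and 1 by both measures. The latter was Chrna10 with monoamine neuron markers, a list that also holds Th, over all 12 libraries (r = 0.98, rho = 0.90, permutation adjusted p = 0.0017 and 0.027). By r alone, Chrna3 and Chrnb4 passed with the same list (r = 0.93 and 0.92), Chrnb3 with upper-layer markers (0.80) and Chrna5 with astrocyte markers (-0.77). The bulb-rich libraries also scored highest on the monoamine list, at 1.999 to 2.599 against 1.144 to 1.787 in the 8 others. The relations of Chrna10, Chrna3 and Chrnb4 to that list thus span both clusters and cannot be told apart from the bulb-rich split. Over the 12 libraries, which span both clusters, the genes with the most similar pattern were Trh (r = 0.991), Th (0.989) and Lgr5 (0.988) for Chrna10 and Nmb (0.976), Calb2 (0.973) and Map3k1 (0.965) for Chrna3, and Trh, Th, Nmb and Calb2 are themselves on the bulb list.

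**Figure D5:**
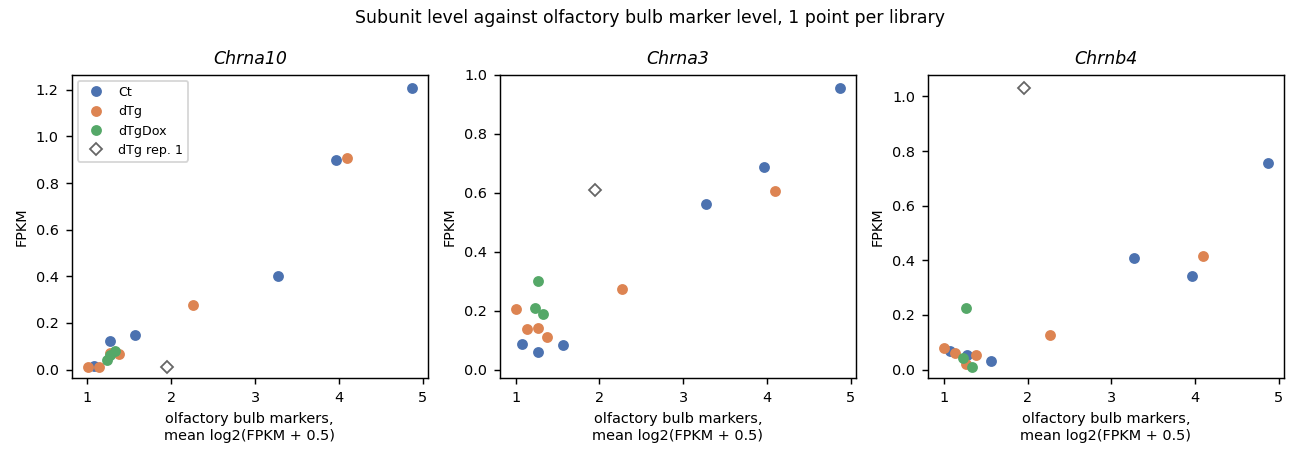
FPKM of Chrna10, Chrna3 and Chrnb4 against the mean log2(FPKM + 0.5) of the olfactory bulb markers, 1 point per library, coloured by group. The 4 libraries above 3 on the marker axis hold the highest Ct and dTg values of each subunit, and dTg replicate 1 (open diamond) has 1.03 FPKM of Chrnb4 at a marker score of 1.95.

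The limma differences of Chrna10 did not pass in any comparison (-0.38 for dTg against Ct, -0.27 for dTgDox against dTg and -0.64 for dTgDox against Ct, with an adjusted p of 1, 0.68 and 0.26). Those of Chrna3 were -0.20, 0.00 and -0.20. The bulb-rich libraries number 3 in Ct, 1 in dTg and 0 in dTgDox, which goes the same way as the order of the mean levels of Chrna10, 0.466 ± 0.482 FPKM (SD, n = 6), 0.225 ± 0.349 (n = 6) and 0.0610 ± 0.0200 (n = 3). The part of bulb markers in these differences was not tested.

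Promoter sequences are shown for the subunits that rose in dTgDox and for those that were high together in bulb-rich libraries. They are the 250 bases before the start site from RefSeq (GRCm38.p6), read along the gene. Capitals mark a GC box (GGGCGG on either strand) or an E box of the form CAGCTG. The first pair is Chrna7 and Chrna5 (of the 2 listed starts of Chrna5, the one inside the gene), and the trio after it is Chrna3, Chrnb4 and Chrna10.
Chrna7, chr7:63212527-63212776, minus strand: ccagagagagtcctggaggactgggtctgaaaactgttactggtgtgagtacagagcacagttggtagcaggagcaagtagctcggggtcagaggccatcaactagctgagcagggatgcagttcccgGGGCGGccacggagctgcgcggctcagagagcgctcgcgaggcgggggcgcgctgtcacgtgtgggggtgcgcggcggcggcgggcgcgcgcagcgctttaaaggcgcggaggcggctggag
Chrna5, chr9:54981238-54981487, plus strand: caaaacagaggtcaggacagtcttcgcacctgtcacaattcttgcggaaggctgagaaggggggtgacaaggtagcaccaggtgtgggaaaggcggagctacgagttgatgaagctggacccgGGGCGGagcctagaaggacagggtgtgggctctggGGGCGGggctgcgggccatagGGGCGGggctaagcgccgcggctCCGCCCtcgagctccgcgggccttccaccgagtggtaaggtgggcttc
Chrna3, chr9:55026563-55026812, minus strand: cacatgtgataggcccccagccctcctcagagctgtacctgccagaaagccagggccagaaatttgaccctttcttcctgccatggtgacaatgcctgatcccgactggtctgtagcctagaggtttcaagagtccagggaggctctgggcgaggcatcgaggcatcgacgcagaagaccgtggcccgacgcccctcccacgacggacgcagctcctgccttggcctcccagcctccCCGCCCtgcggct
Chrnb4, chr9:55048545-55048794, minus strand: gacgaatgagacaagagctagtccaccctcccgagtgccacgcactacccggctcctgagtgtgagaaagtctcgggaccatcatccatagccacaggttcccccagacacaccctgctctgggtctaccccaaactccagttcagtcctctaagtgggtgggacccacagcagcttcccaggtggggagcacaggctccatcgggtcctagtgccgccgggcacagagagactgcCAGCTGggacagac
Chrna10, chr7:102116714-102116963, minus strand: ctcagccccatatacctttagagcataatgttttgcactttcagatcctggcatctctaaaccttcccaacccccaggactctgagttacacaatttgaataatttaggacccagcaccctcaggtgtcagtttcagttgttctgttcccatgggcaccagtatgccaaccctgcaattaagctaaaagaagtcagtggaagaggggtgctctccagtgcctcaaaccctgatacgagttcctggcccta

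Chrna7 held 1 GC box and this start of Chrna5 held 4, with a GC content of 67.2% and 65.2%. The other listed start of Chrna5, at the annotated beginning of the gene, held no GC box at a GC content of 40.0%. Chrna3 held 1 GC box, Chrnb4 held 1 E box, and Chrna10 held neither motif at a GC content of 48.0%. A GC box was present in 32.7% and this E box in 13% of 32851 promoter windows of the same length. The cyclic AMP response element TGACGTCA was in none of the 8 windows of the 7 members searched and in 1.5% of all windows. The 3 subunits that were high together in bulb-rich libraries thus had no motif of these 3 in common.

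The 4 subunits too low for the fit across genes were tested one by one. Chrnb3, a subunit of dopamine-neuron receptors, was 0.0990, 0.114 and 0.140 FPKM in dTgDox, 0.208 to 0.660 FPKM in Ct and 0.319 to 0.596 FPKM in dTg. All 3 dTgDox libraries were below all 12 others, as they were for 8.06% of the genes that entered the fit. The mean log2 difference was -0.54 against dTg (exact permutation p = 0.0119, the smallest possible) and -0.42 against Ct (exact permutation p = 0.0238). None of the 12 tests of these 4 subunits passed after adjustment for their number. In a fit without the filter on low values, over 31213 genes, limma gave an adjusted p of 0.0228 and 0.0706, so the difference from dTg passed there and that from Ct did not. Chrna2 was 0.189 to 0.536 FPKM in Ct, 0.0670 to 0.313 in dTg and 0.204 to 0.282 in dTgDox, and Chrnb4 is given above. Neither passed in any comparison (smallest exact permutation p = 0.0671 for Chrna2 and 0.321 for Chrnb4). Chrna6 was at most 0.05 FPKM in Ct, 0.0700 in dTg and 0.0320 in dTgDox, the worth of a few reads on its 2906 exon bases. Its exact permutation p-values of 0.0455 for dTg against Ct and 0.0357 for dTgDox against dTg are not read as differences at this depth.

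Of 19 genes that assemble, traffic or modulate nicotinic receptors 16 were tested, and 1 rose and 1 fell in dTgDox against dTg, 2 rose and 1 fell in dTgDox against Ct, and none passed in dTg against Ct. These are no larger shares than over all genes, of which 18.9% and 19.7% passed in the dTgDox comparisons. Ly6h, a membrane-anchored protein that limits surface Chrna7, rose in both comparisons, from 138.6 to 196.3 FPKM across Ct and dTg to 253.1, 231.8 and 252.1 FPKM in dTgDox (limma log2 difference 0.48 against dTg, adjusted p = 0.0016, and 0.58 against Ct, adjusted p = 0.00033). Lypd1, another protein of that family, rose against Ct (1.05, adjusted p = 0.013) and did not pass against dTg (0.59, adjusted p = 0.14). Vsnl1, a neuronal calcium sensor, fell by 0.52 against dTg (adjusted p = 0.0057) and by 0.37 against Ct (adjusted p = 0.033). The chaperones Ric3 and Tmem35a, which help Chrna7 to fold and reach the surface, did not pass, with Ric3 at 0.11 and 0.04 and Tmem35a at -0.07 and -0.23 on the log2 scale. Lynx1, a brake on nicotinic receptors, stood at 79.4 to 115.7 FPKM in Ct and dTg and at 105.5 to 111.3 FPKM in dTgDox and did not pass.

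Of the 9 genes that make, load, recycle or break down acetylcholine, 8 were tested. Slc44a1, a choline transporter that also serves membrane synthesis, rose in dTgDox (log2 difference 0.49 against dTg, limma adjusted p = 0.024, and 0.58 against Ct, adjusted p = 0.0095), and the 7 others did not pass. The share of 1 in 8 lies below the 18.9% and 19.7% over all genes. Ache, the enzyme that breaks acetylcholine down, was 24.4 to 37.2 FPKM in Ct, 26.0 to 32.1 FPKM in dTg and 24.3, 32.5 and 25.0 FPKM in dTgDox (log2 difference -0.11 in both comparisons, adjusted p = 0.58 and 0.59). Chat, which makes acetylcholine, reached 3.65 and 1.89 FPKM in Ct replicates 4 and 6, 2.11 in dTg replicate 6 and 0.999 in dTg replicate 2, libraries where Ppp1r1b, a marker of striatal projection neurons, was 166.5 to 320.4 FPKM. Chat was at most 0.565 FPKM elsewhere, and Ppp1r1b at most 105.9 FPKM in the other libraries of the 15. Of the 6 other nicotinic genes, those of the muscle receptor and Chrna9, Chrnb1 alone was tested (0.628 to 1.23 FPKM) and did not pass. Chrna1, the muscle alpha subunit, was too low to enter the fit at 0.154 to 0.356 FPKM in Ct and dTg and 0.416, 0.555 and 0.453 FPKM in dTgDox. Its dTgDox libraries lay above all 12 others, as they did for 8.06% of the genes that entered the fit. Chrnd was listed at 0 in every library.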

How the data were processed

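Each file deposited by the authors holds, for 46073 Ensembl genes of 1 library, values that scale reads by transcript length and library size, read here as FPKM. No header or label names the unit: it was inferred because, in single-exon genes of at least 600 bases, values step by a constant divided by gene length. The authors named TopHat2 and DESeq, per the submitters' processing notes, and per the labels' protocols the RNA had RIN values of 8 to 8.9 and gave single-end reads of polyadenylated RNA. Not given in the sources used here are tool versions, the build, the annotation and the program that quantified genes. Depth was estimated from the size of these steps (20.7 to 29.0 M reads in the 15 libraries tested), so no counting intervals were computed. Symbols came from GENCODE M21 by identifier (45139 matched, 934 did not); 2 symbols of the gene lists were not found.

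Groups followed the genotype and Dox labels. Files were compared value by value, and Ntg replicate 1, identical to dTg replicate 1, was not used. The tests ran in R 4.3.3 with limma 3.58.1 on log2(FPKM + 0.5) with 1 mean per group, a trend and robust moderation. A gene entered when 3 or more of the 15 libraries reached 0.5 FPKM. All p-values are two-sided, with adjustment over 19064 genes (Benjamini-Hochberg, threshold 0.05). The script was tested on simulated data. Genes under the filter and ratios within a library had exact permutation tests. Correlations were permuted 100000 times for 8 or 12 libraries and exactly for 6. Relations to the bulb list stayed within the 8 bulb-poor libraries. Alternatives covered the pseudocount, filter, scaling, groups fitted, a replicate block, dTg replicate 1 and each library left out; 2 were added after the data were seen.

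The members and gene lists were chosen with earlier results of these data known. All members are named; of related lists, genes past the threshold (at most 6 a list) with Ric3, Tmem35a, Lynx1 and Ache; Mir211, Trpm1 and Camk2a; and the 3 genes (for Chrna7 also 5 over 15 libraries) nearest in pattern to each tested member. 1 gene that this rule names is not reported here. The rule for regional lists, their 3 highest members, was not followed: Cabp7, Spink8, C1ql2, Doc2g, Th, Ppp1r1b and Pcp2, and Adar and Chat, were picked after their values were seen.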

Additional observations from a re-analysis of the deposited data

Results flagged for a closer look

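In 20 tests of whether the highest or lowest library of a group lay far from the others, 5 found one; chance does so in about 1 in 20. In dTg replicate 3, Chrna10 was 0.908 FPKM against 0.0130 to 0.279 in the other 5 dTg libraries, Chrna3 was 0.605 against 0.111 to 0.275, and Chrnb4 was 0.417 against 0.0220 to 0.128. These 3 values come from 1 library, which is also the dTg library richest in olfactory bulb markers. Chrna4 was 13.6 FPKM in dTg replicate 4 against 9.30 to 10.6 in the others. Chrnb3 was 0.660 FPKM in Ct replicate 2 against 0.208 to 0.352 in the other Ct libraries.

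The library labelled dTg replicate 1, which is not in the main comparisons, lay above all 6 Ct libraries for 2 subunits. Chrnb2 was 25.0 FPKM in it against 17.1 to 19.3 in Ct, and Chrnb4 was 1.03 FPKM against 0.0330 to 0.755. In the same library Chrna4 was 1.17 FPKM, Chrna7 1.88 FPKM and Chrna5 was listed at 0. Pcp2, a gene of cerebellar Purkinje cells, was 660.8 FPKM there and at most 6.15 FPKM in the 15 others.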

How the results depend on the processing

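With dTg replicate 1 added, 1537 genes passed for dTgDox against dTg and 1504 against Ct (3596 and 3758 without it), and 1 and 0 of the subunits passed. Chrna5 then differed by 1.06 and 0.81 (limma adjusted p = 0.0584 and 0.157) and Chrna7 by 0.76 from Ct (adjusted p = 0.138). Replicate numbers did not pair the libraries: same-numbered libraries correlated by -0.19 to 0.08 (10 pairs) and others by -0.11 to 0.18. With the replicate number as a block, 1562 and 2394 genes passed, and 1 subunit against dTg, where Chrna5 was 0.71 (adjusted p = 0.0907). Without the 4 bulb-rich libraries 1 subunit passed against Ct, Chrna7 being at 0.66 (adjusted p = 0.0813). Leaving out 1 library at a time gave 2077 to 3715 and 2229 to 3872 genes, the fewest without dTgDox replicate 1 (2155 and 2273 without dTgDox replicate 3). Subunits against Ct then numbered 1 to 2, and Chrna7 ran from 0.61 to 0.94, lowest without dTgDox replicate 3. For dTg against Ct, 0 to 1 genes passed with a library left out (Gm37773 without dTg replicate 3, Gm26244 without dTg replicate 6), 1 with a pseudocount of 0.1 (Gm26244), 2 without the bulb-rich libraries (Gm13443, Gm27913) and 2 with dTg replicates 5 to 7, whose file headers share a number, averaged as 1 (Gm22772, Gm26244), named after their values were seen. These are the settings in which a call or a count moved; the causes were not tested. No direction that passed reversed. Chrna10 fell under the filter without 1 of 3 libraries and has no value there. Depth limits what can be read from Chrna6 and from the lower values of Chrnb4 and Chrna10 in every group, which rest on a few reads.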
